A study of Mus musculus with 32 samples.

Results

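The tumours described here are the 8 of 32 Eµ-myc mouse lymphomas in which Cdkn2a was close to the floor of the array, at under 4.5 on the log2 scale. They were set against the 21 lymphomas with an intermediate Cdkn2a level of 4.5 to 9. The other 3 lymphomas, at 10 or more, were left out of the comparison, and their values are given as background. The groups were defined from the measured Cdkn2a level and are not groups of the study, whose labels give a single group of lymphomas. In the Eµ-myc mouse, the Myc oncogene is driven by the immunoglobulin heavy chain enhancer, which is active in the B cell lineage, so every tumour in both groups carries the same transgene. Strain, age and treatment are not stated for any tumour. Each tumour was measured once, with RNA from frozen lymphoma tissue or from dissociated cells, hybridised to an Affymetrix Mouse430_2 array. The labels do not say which tumours were tissue and which were cells.

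Cdkn2a encodes a pair of tumour suppressors from separate first exons. p19Arf binds and inhibits Mdm2, the ubiquitin ligase that degrades p53, and so lets oncogenic Myc trigger p53. p16Ink4a inhibits the cyclin D kinases Cdk4 and Cdk6, as does p15Ink4b from the neighbouring gene Cdkn2b. In Eµ-myc lymphomas, loss of p19Arf or of p53 is a well known step in tumour formation, and tumours without working p53 often have very high p19Arf. Mtap, the gene on the other side of Cdkn2a, encodes the enzyme that recycles methylthioadenosine, a by-product of polyamine synthesis. It is often deleted together with Cdkn2a in tumours.

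Cdkn2a has 1 probe set on this array with a single gene symbol, so both products are read together. The 8 low tumours are named by their numbers in the labels. Their Cdkn2a levels were 3.79 in tumour 28, 4.13 in tumour 30, 4.14 in tumour 15, 4.15 in tumour 3, 4.18 in tumour 11, 4.23 in tumour 25, 4.24 in tumour 21 and 4.43 in tumour 29. The intermediate tumours lay between 4.94 and 8.51, with a median of 6.10, and the 3 left out between 10.70 and 10.79. Since Cdkn2a chose the groups, these levels are a description. The highest low tumour, at 4.43, and the lowest intermediate tumour, at 4.94, were 0.51 apart, against a span of 0.64 within the low group. The deposited values carry no detection call, so a level near 4 cannot be told apart from no transcript, and the array does not show whether the gene is deleted, silenced or not transcribed.

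The windows around the start sites at this locus are shown because the results turn on which genes beside Cdkn2a shared its low level. Each is the RefSeq sequence of mouse assembly GRCm38.p6 300 bases long and spanning a start with most of its length upstream, 5′ to 3′ on the gene's own strand, with each CpG, the dinucleotide that DNA methylation marks, in capitals. The p19Arf start lies at chr4:89294570-89294869 and the p16Ink4a start at chr4:89282143-89282442, both on the minus strand. The Mtap start lies at chr4:89137120-89137419 and the Dmrta1 start, on the far side of Cdkn2b, at chr4:89687948-89688247, both on the plus strand.
Cdkn2a, p19Arf start: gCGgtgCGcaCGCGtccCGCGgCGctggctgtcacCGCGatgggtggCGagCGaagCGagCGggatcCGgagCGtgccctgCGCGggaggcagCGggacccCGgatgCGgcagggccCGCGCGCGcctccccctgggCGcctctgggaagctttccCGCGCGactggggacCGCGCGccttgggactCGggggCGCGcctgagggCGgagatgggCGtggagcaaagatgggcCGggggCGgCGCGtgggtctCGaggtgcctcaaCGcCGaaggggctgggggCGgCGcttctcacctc
Cdkn2a, p16Ink4a start: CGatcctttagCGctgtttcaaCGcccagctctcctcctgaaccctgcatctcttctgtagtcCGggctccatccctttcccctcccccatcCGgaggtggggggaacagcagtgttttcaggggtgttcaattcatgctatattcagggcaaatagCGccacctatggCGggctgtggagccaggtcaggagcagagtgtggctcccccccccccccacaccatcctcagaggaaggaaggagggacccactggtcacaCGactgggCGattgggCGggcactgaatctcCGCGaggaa
Mtap: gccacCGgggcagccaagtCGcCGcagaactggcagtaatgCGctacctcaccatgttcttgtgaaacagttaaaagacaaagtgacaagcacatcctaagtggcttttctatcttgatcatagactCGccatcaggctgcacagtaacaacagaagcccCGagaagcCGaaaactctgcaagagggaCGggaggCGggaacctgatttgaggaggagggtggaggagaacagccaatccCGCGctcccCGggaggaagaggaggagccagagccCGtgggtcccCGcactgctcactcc
Dmrta1: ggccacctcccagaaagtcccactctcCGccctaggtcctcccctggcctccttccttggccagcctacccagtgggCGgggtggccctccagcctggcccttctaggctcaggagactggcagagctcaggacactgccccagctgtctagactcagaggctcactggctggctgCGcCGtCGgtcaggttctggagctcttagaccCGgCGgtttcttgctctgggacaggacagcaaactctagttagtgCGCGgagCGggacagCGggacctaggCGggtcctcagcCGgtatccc
The p19Arf window held 45 CpGs, a number that 1.93% of the 32851 promoter windows in the table reach, where the median window holds 7. The p16Ink4a window held 12 CpGs, Mtap 14 and Dmrta1 13, and 39.6%, 36.3% and 37.9% of windows respectively hold at least as many. The Cdkn2b window, at chr4:89310983-89311282 on the minus strand, held 18 CpGs, as many as 29.7% of windows reach. The Myc E-box CACGTG, which reads the same on both strands, had 0 matches in each of these 5 windows and at least 1 match in 7.15% of all windows. These counts describe the sequence only, and methylation and binding were not measured.

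Mtap, next to Cdkn2a in gene order, had the lowest moderated t of all genes tested. Its level was 6.59 in tumour 29, 7.22 in tumour 21, 8.53 in tumour 30, 8.89 in tumour 15, 9.36 in tumour 3, 9.65 in tumour 28, 9.92 in tumour 25 and 10.32 in tumour 11. The intermediate tumours ran from 8.79 to 10.58, with a median of 10.14, and the left-out tumours from 9.60 to 10.15. Tumours 29, 21 and 30 were below every intermediate tumour, while the other 5 lay within the intermediate range, 4 of them below its median. The low end of that range was tumour 2 alone, at 8.79, and the next lowest intermediate tumour was tumour 18 at 9.40. Tumours 15 and 3 lay between those levels. In the fit without a filter, 2.75% of 18193 genes had 3 or more low tumours below the intermediate range. The mean difference was −1.28 ± 0.31 (SE, 8 against 21 tumours), with p = 0.000586 in an exact permutation test, two-sided. Across all genes it did not pass, with limma's adjusted p = 0.179 in the fit without a filter and 0.156 with it.

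The low Mtap of tumours 29 and 21 was present in every Mtap probe set. In the probe set where the gap was widest, tumour 29 stood at 3.86 and tumour 21 at 5.57, while the lowest intermediate tumour was at 8.13. Tumour 15, at 8.10, was just below that level in the same probe set. In the remaining pair of probe sets tumour 29 stood at 5.25 and 3.97 and tumour 21 at 5.46 and 4.33, against lowest intermediate levels of 7.21 and 6.90. Tumour 30 was below the intermediate range in 2 of the 4 probe sets, so its low value is less even over the gene. Without tumours 21 and 29 the difference was −0.64 (exact permutation p = 0.0085). Without tumours 29 and 30 it was −0.86 (exact permutation p = 0.00783), and with the boundary lowered so that tumour 29 counted as intermediate, it was −0.80 (exact permutation p = 0.0397).

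Cdkn2b, the closest gene on the other side, did not share this pattern. It was 5.57 in tumour 21, 5.59 in tumour 28, 5.61 in tumour 3, 5.65 in tumour 11, 5.80 in tumour 29, 5.85 in tumour 30, 5.99 in tumour 25 and 6.03 in tumour 15. The intermediate tumours ran from 5.53 to 6.43, with a median of 5.86, so the groups overlapped and 0 low tumours were below the intermediate range. The difference of −0.15 ± 0.09 (SE) had p = 0.103 in an exact permutation test, two-sided, and an adjusted p of 0.604 in limma's fit. Its levels span less than 1 unit over all tumours and sit at the filter level of 5.78, so a loss of Cdkn2b would be hard to see on this array. A boundary at 5 gave −0.19 (exact permutation p = 0.0227), and leaving out tumour 15 also gave −0.19 (exact permutation p = 0.0493).

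The next measured genes outward were Ifna1, an interferon alpha gene on the Mtap side, and Dmrta1, a DM-domain transcription factor gene on the Cdkn2b side. Ifna1 lay between 5.56 and 5.95 in the low tumours and between 5.13 and 5.87 in the intermediate ones, with tumour 29 alone above the intermediate range. Dmrta1 was near the floor, at 3.01 to 3.18, in 7 of the low tumours, and at 2.86 to 3.59 in the intermediate and 3.05 to 3.26 in the left-out tumours. In tumour 3 it was 7.34, more than 3 units above every other tumour. Tumour 3 thus had the floor level of Cdkn2a beside a high level of a neighbouring gene that was near the floor elsewhere. It has 1 Dmrta1 probe set behind it.

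**Figure D1:**
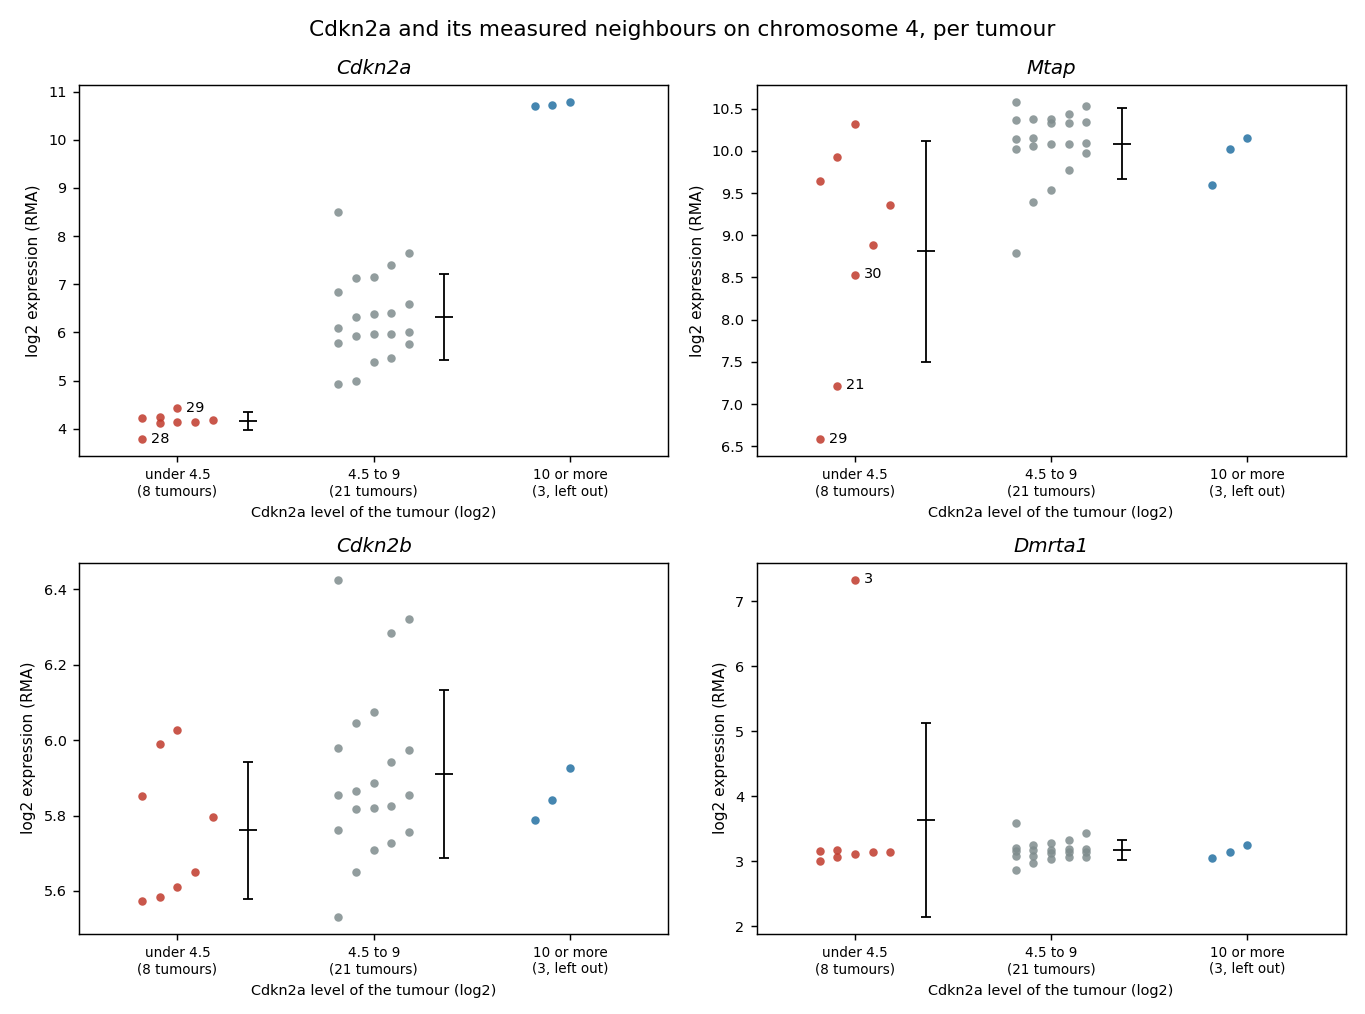
Log2 level of Cdkn2a, Mtap, Cdkn2b and Dmrta1 in each tumour (points), by Cdkn2a group, with the mean and SD of the groups compared (black bars, placed to the right of the points). Tumours 21, 29 and 30 lie below all intermediate tumours for Mtap, tumour 3 stands alone at 7.34 for Dmrta1, and the groups overlap for Cdkn2b.

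Among the 20 measured genes on each side of Cdkn2a, 19 of 40 passed the filter on dim genes and 0 of 40 passed the test in limma's fit without a filter, where 0.0055% of all genes were called. At an unadjusted p under 0.05 there were 3 of 40, close to the 9.43% of all genes, namely Mtap, Mysm1 and Acer2. Mysm1, a histone H2A deubiquitinase gene, was 0.37 ± 0.10 (SE) higher (limma's adjusted p = 0.263), and Acer2, an alkaline ceramidase gene, was 0.47 ± 0.20 (SE) higher (limma's adjusted p = 0.457). At least 1 low tumour was below the intermediate range for 14 of 40 neighbours and above it for 16 of 40, beside 35.8% and 27.4% of all genes. Klhl9, which lies within the interferon cluster and is bright on this array, was 10.07 to 10.70 in the low tumours and 9.59 to 10.75 in the intermediate ones, so a bright gene close to Mtap was present at ordinary levels in all 8.

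Single low tumours had their own pattern around the locus; the genes in this paragraph were chosen after their values were seen. In tumour 21, 1 of 40 neighbours, Mtap, was below the intermediate range, while Caap1, Plaa, Tek, Mysm1 and Cyp2j6, all on the Cdkn2b side, were above it. Caap1 was 9.17 there against a highest intermediate level of 8.78, and Plaa, a phospholipase A2 activating protein gene, was 10.30 against 9.85. In tumour 29, 6 neighbours were below the range. Besides Mtap they included Ift74, an intraflagellar transport gene, at 4.61 against a lowest intermediate level of 5.58, and Tusc1 at 5.48 against 5.64. Caap1, which lies between Tusc1 and Ift74, was 8.94 in the same tumour and above the intermediate range. In tumour 28, Ift74 was also low, at 5.10, while Mtap was at 9.65.

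Over the whole of chromosome 4, 2 of the 8 low tumours had long stretches of genes shifted together. The 685 tested genes of the chromosome were read in order outward from Cdkn2a in bins of 40, as the median difference from the mean of the intermediate tumours. In tumour 21 the first 4 bins after Cdkn2a, from Cdkn2b to Lsm10, had medians of 0.63, 0.65, 0.63 and 0.65, and the fifth bin, which starts at Stk40, had 0.04. On the Mtap side the first bin of tumour 21 was at −0.13. Of the 160 genes in the raised stretch, 146 were above the mean of the intermediate tumours and 94 (58.8%) were above their whole range. In the other 7 low tumours at most 13 of these 160 genes were above it. Because the bins were counted from Cdkn2a, a bin edge lay there by construction, and the bins do not place the start of the shift. Gene by gene in tumour 21, Cdkn2b was 5.57 and Tusc1 5.86, against intermediate means of 5.91 and 6.37. Caap1, measured gene 7 after Cdkn2a, was the first above the intermediate range. Cdkn2a and Mtap were both low in this tumour.

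In tumour 28 the shift ran the other way and farther out. The 7 outermost bins after Cdkn2a, from Stk40 to Mxra8, had medians from −0.61 to −0.43. Of their 280 genes, 264 were below the mean of the intermediate tumours and 135 (48.2%) were below their whole range, against at most 29 of 280 in any other low tumour. The 2 bins before Cdkn2a and the first bin after it were also low in tumour 28, at −0.34, −0.20 and −0.32. In the 21 intermediate tumours, the bin medians of chromosome 4 stayed between −0.22 and 0.16, and in the 3 left-out tumours between −0.14 and 0.09. The remaining 6 low tumours lay between −0.24 and 0.24. DNA copy number was not measured, so these are shifts in expression along the chromosome.

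**Figure D2:**
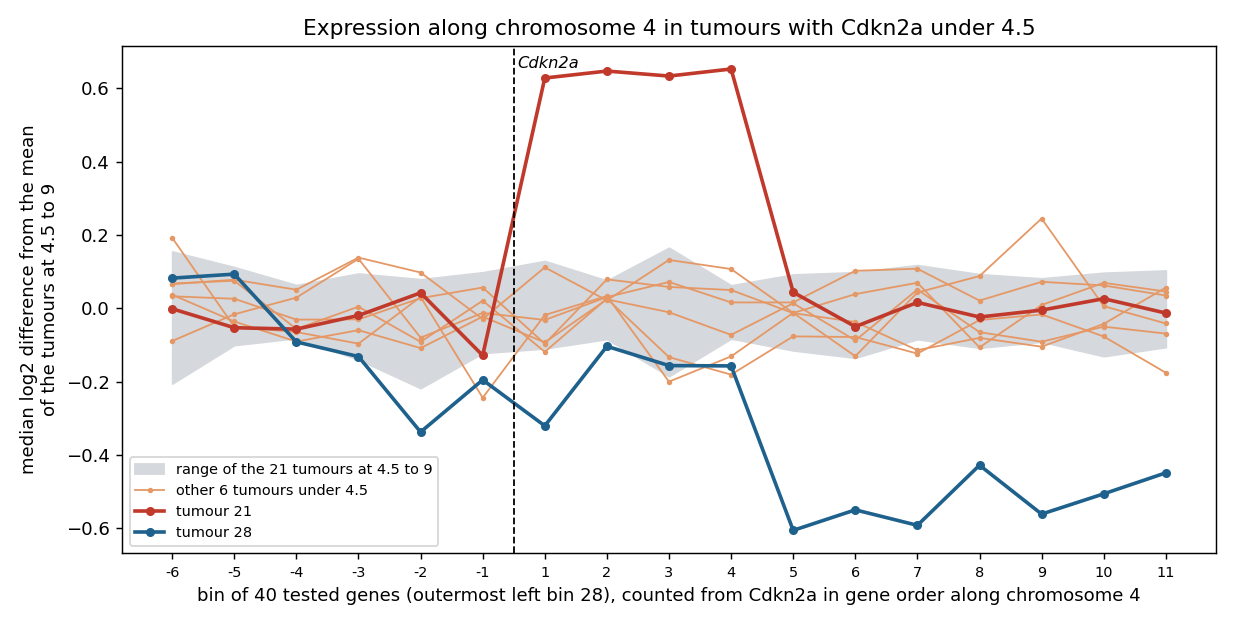
Median log2 difference from the mean of the intermediate tumours in bins of 40 tested genes along chromosome 4, counted outward from Cdkn2a, with the range of the 21 intermediate tumours shaded. Tumour 21 lies at 0.63 to 0.65 in the 4 bins after Cdkn2a and tumour 28 at −0.61 to −0.43 in the outer 7, while the other 6 low tumours stay between −0.24 and 0.24.

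Shifts of this kind were read on all autosomes in bins of 40 genes counted from each chromosome's first tested gene, counting bins beyond 0.3 in either direction. Over the 255 bins outside chromosome 4, a raised bin was present in 2 of 8 low tumours and 15 of 21 intermediate ones, and a lowered bin in 2 of 8 and 4 of 21. With chromosome 4 included, 272 bins in all, tumour 28 had 17 lowered bins, 10 of them on chromosome 4 and 7 on chromosome 2, and 6 raised bins, all on chromosome 5. Tumour 15 had 2 raised bins on chromosome 3, tumour 21 had 4 on chromosome 4, and tumours 3, 11, 25 and 29 had 0 in either direction. The difference between the groups in these counts was not tested. As group means, the chromosomes were level, with median differences from −0.05 to 0.03 on the autosomes.

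Away from the locus, 1 of 11227 genes (0.00891%) passed the test, limma's with Benjamini-Hochberg adjustment at 0.05. It was Tsc22d3, which encodes the glucocorticoid-induced leucine zipper protein, a regulator of transcription that glucocorticoids and FoxO factors induce in lymphocytes. Its level was 10.23 in tumour 11, 10.24 in tumour 28, 10.35 in tumour 21, 10.54 in tumour 3, 10.57 in tumour 29, 10.75 in tumour 15, 10.99 in tumour 25 and 11.70 in tumour 30. The intermediate tumours ran from 8.62 to 10.30, with a median of 9.65. All 8 low tumours were above that median and 6 of 8 were above the whole range, where 0.0445% of genes have 6 or more low tumours. Tsc22d3 rose by 1.21 ± 0.21 (SE), or 2.32-fold, with limma's adjusted p = 0.022.

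Of the other Tsc22d3 probe sets, one was 1.33 higher on average in the low tumours and another 0.27 higher, with all 8 low tumours above the intermediate median in both, while the dimmest differed by −0.05. The 3 tumours with the highest Cdkn2a also had high Tsc22d3, at 10.45 to 11.19, so along the whole range of Cdkn2a the intermediate tumours were the low ones for this gene. The call was lost under 10 of 47 alternatives, all with the same sign. Leaving out tumour 30 gave 1.07 (limma's adjusted p = 0.12), tumour 25 1.17 (0.11), tumour 29 1.23 (0.0576) and tumour 3 1.23 (0.0515).

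A salivary gland signal was present in part of the tumours of both groups. Bpifa2, a secretory protein gene of the salivary glands, split the tumours around a wide gap and was high in 5 of 8 low, 6 of 21 intermediate and 0 of 3 left-out tumours, and its difference between the groups did not pass (limma's adjusted p = 0.514). With this split into Bpifa2 high or not as a covariate, Tsc22d3 was 1.14 higher (limma's adjusted p = 0.134). Among tumours without the Bpifa2 signal, 3 against 15, it was 0.82 higher (limma's adjusted p = 0.999). In those without it, Tsc22d3 was 10.23 to 10.35 in the low and 8.62 to 10.30 in the intermediate tumours. In those with it, Tsc22d3 was 10.54 to 11.70 in the 5 low and 8.95 to 9.77 in the 6 intermediate tumours, without overlap.

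Many genes had small average differences that the test did not separate from the spread of the tumours. At an unadjusted p under 0.05 there were 1227 genes (10.9%), 679 higher (6.05%) and 548 lower (4.88%) in the low tumours. With arrays scaled to reference genes the split was 842 higher and 369 lower. The median difference over all genes was −0.02, and 32 genes differed by more than 1 unit, 26 of them higher. Simulated data of this size held 200 changed genes, with the values of each gene drawn independently of the others. A shift of 1 SD of a gene was found there for 6% of changed genes and a shift of 2 SD for 74%. Under those settings a modest difference would mostly be missed.

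Below Tsc22d3 by moderated t stood Sik1, a salt-inducible kinase gene, named after its values were seen. Sik1 was 6.59 in tumour 21, 6.63 in tumour 11, 6.94 in tumour 15, 7.06 in tumour 28, 7.21 in tumour 3, 7.62 in tumour 29, 7.71 in tumour 30 and 8.05 in tumour 25. The intermediate tumours ran from 5.85 to 7.19 with a median of 6.23, and the left-out tumours from 6.69 to 8.34. The difference of 0.84 ± 0.16 (SE) missed the threshold (limma's adjusted p = 0.0763). A second probe set of Sik1 differed by 1.33 in the same direction. Ly6d, a surface marker of early B cell commitment, was on average 2.16 ± 0.51 (SE) higher (limma's adjusted p = 0.156), but the groups overlapped, at 8.46 to 11.88 against 6.16 to 11.65.

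The genes with the lowest t after Mtap did not pass either. Mrps6, a mitochondrial ribosomal protein gene, was −0.52 ± 0.13 (SE, limma's adjusted p = 0.156), with 5 of 8 low tumours below the intermediate range, where 2.7% of tested genes had 3 or more. Ppa1, a pyrophosphatase gene, was −0.47 ± 0.12 (SE, limma's adjusted p = 0.162), with 4 of 8 below it. Bcat2, the mitochondrial branched-chain aminotransferase, and Dusp12, a dual-specificity phosphatase, were −0.27 ± 0.07 and −0.36 ± 0.09 (SE).

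**Figure D3:**
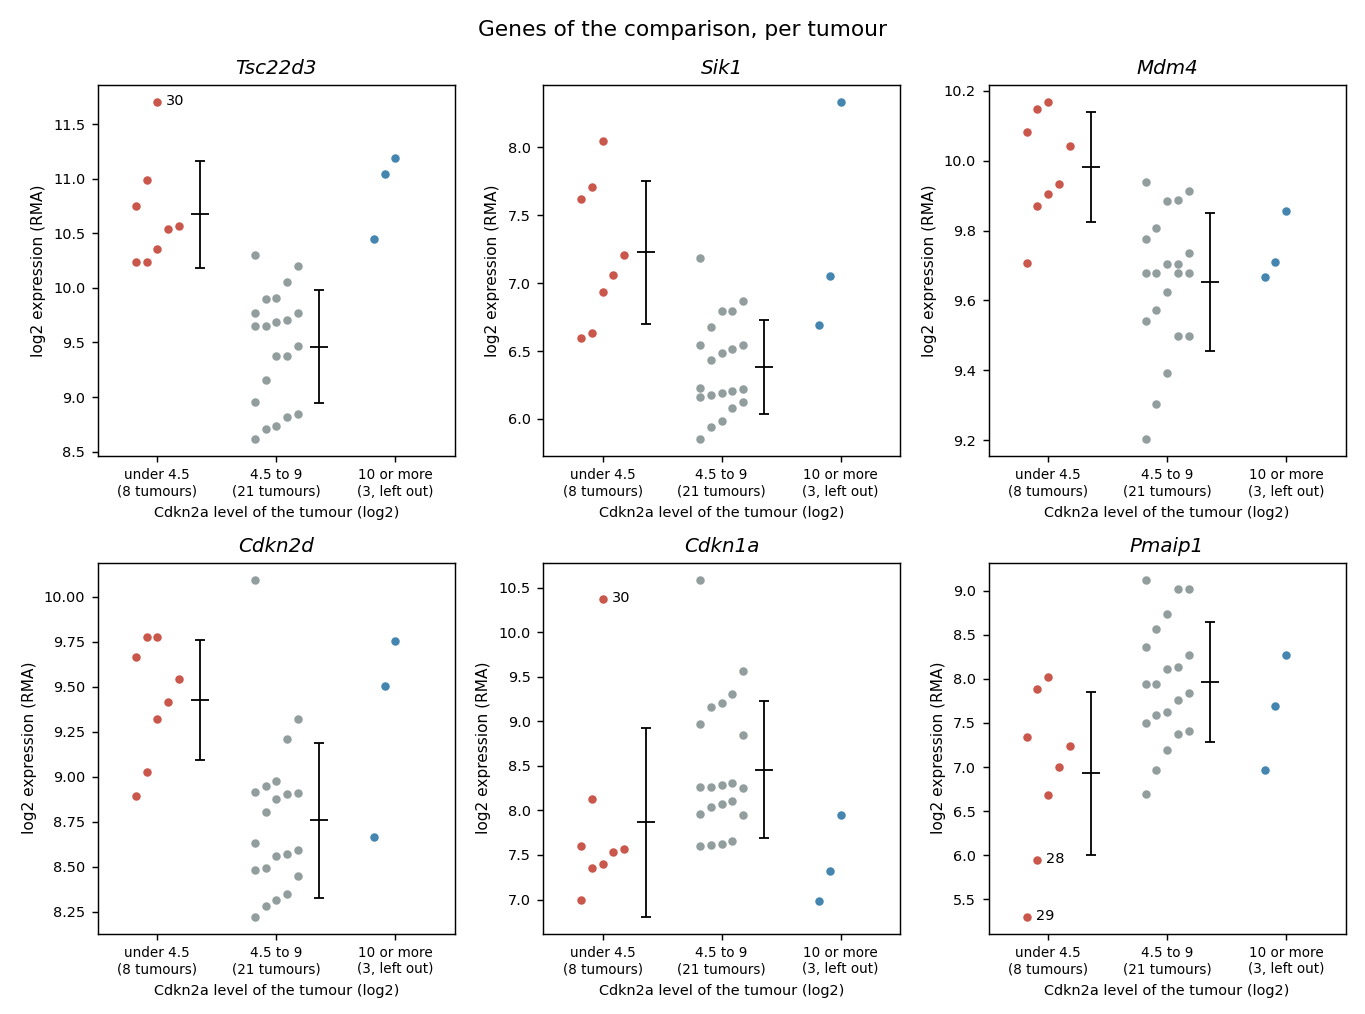
Log2 level of Tsc22d3, Sik1, Mdm4, Cdkn2d, Cdkn1a and Pmaip1 in each tumour (points), by Cdkn2a group, with the mean and SD of the groups compared (black bars, placed to the right of the points). For Tsc22d3, 6 of 8 low tumours lie above all intermediate ones, and for Cdkn1a 6 of 8 lie below them while tumour 30 stands at 10.37.

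The p53 targets, the genes downstream of p19Arf, showed no shared direction between the groups. Of 40 genes in the list 34 were tested, 0 passed, 15 were higher and 19 lower, and the median difference was −0.03 beside −0.02 for all genes. At an unadjusted p under 0.05 there were 3 higher (Ddit4, Btg2 and Ercc5) and 3 lower (Pmaip1, Rps27l and Phlda3), beside 6.05% and 4.88% of all genes. The 3 lower ones are a BH3-only killer protein, a ribosomal protein paralogue and an inhibitor of Akt. The 3 higher ones are an inhibitor of mTORC1, an anti-proliferative gene and a repair nuclease. What moved the genes in either direction was not tested.

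Cdkn1a, which encodes the p53-induced cell cycle inhibitor p21, had an uneven pattern. Its level was 6.99 in tumour 29, 7.35 in tumour 11, 7.40 in tumour 3, 7.53 in tumour 28, 7.57 in tumour 25, 7.60 in tumour 21, 8.13 in tumour 15 and 10.37 in tumour 30. The intermediate tumours ran from 7.60 to 10.59, with a median of 8.26, and the left-out tumours from 6.98 to 7.95. Thus 6 of 8 low tumours were below every intermediate tumour, tumour 21 by a negligible margin, and 0.0178% of genes have 6 or more low tumours there. Tumour 30 was near the top. The mean difference was −0.59 ± 0.34 (SE, limma's adjusted p = 0.542), and without tumour 30 it was −0.95 (limma's adjusted p = 0.383). In the other Cdkn1a probe set 1 of 8 low tumours was below the intermediate range and 7 of 8 below its median.

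Pmaip1, which encodes the pro-apoptotic BH3-only protein Noxa, was 5.30 in tumour 29 and 5.95 in tumour 28, and between 6.68 and 8.02 in the other 6. The intermediate tumours ran from 6.69 to 9.13. Its difference was −1.03 ± 0.30 (SE, limma's adjusted p = 0.214), with 3 of 8 low tumours below the intermediate range. Other classical targets were not separated. Mdm2 differed by 0.03, Ccng1 by −0.24 and Zmat3 by −0.33, with limma's adjusted p from 0.528 to 0.915, and the Zmat3 levels of the low tumours spread from 6.59 to 9.39. Rps27l differed by −0.19 ± 0.06 (SE, limma's adjusted p = 0.215).

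Of the 17 tested regulators of p53, 0 passed, with 2 higher and 1 lower at an unadjusted p under 0.05, beside 6.05% and 4.88% of all genes. Mdm4, the partner of Mdm2 that binds and inhibits p53, was 0.33 ± 0.08 (SE) higher (limma's adjusted p = 0.156). It was 9.71 in tumour 3 and between 9.87 and 10.17 in the other 7, against 9.20 to 9.94 in the intermediate tumours, with 4 of 8 above the range. The remaining 3 Mdm4 probe sets were dimmer and differed by −0.06 to 0.01, so the difference rests on a single probe set. Rchy1, another ubiquitin ligase of p53, was 0.36 ± 0.14 (SE) higher (limma's adjusted p = 0.334). Hipk2, a kinase that activates p53, was 0.53 lower on average (limma's adjusted p = 0.426), a mean pulled down by tumour 29 at 6.86. The other 7 low tumours were at 9.14 to 10.42, against 9.41 to 10.57 in the intermediate tumours. Trp53 itself and its target Bax are not analysed here.

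Known repressors and activators of Cdkn2a were tested for 24 genes, and 0 passed. The Polycomb genes, which silence the locus, stood at −0.33 for Bmi1, 0.18 for Ezh2 and −0.18 for Eed. Dmtf1, an activator of the p19Arf promoter, was 0.30 ± 0.12 (SE) higher (limma's adjusted p = 0.374), with tumours 25, 28 and 29 at 9.46 to 9.72 and the other 5 at 8.54 to 8.76, inside the intermediate range of 8.38 to 9.02.

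The cell cycle genes on which p16Ink4a and its relatives act gave 0 of 20 calls, with 2 higher and 4 lower at an unadjusted p under 0.05, beside 6.05% and 4.88% of all genes. Cdkn2d, which encodes p19Ink4d, another inhibitor of Cdk4 and Cdk6, was 0.67 ± 0.17 (SE) higher (limma's adjusted p = 0.162). It was 8.89 in tumour 28, 9.03 in tumour 21 and 9.32 to 9.78 in the other 6, and all 8 were within the intermediate range of 8.22 to 10.10. That range ends with tumour 31, and leaving tumour 31 out made the difference 0.74 with limma's adjusted p = 0.0123. This was the only alternative run in which Cdkn2d passed, and it takes out the intermediate tumour with the highest level. The inhibitor gene Cdkn1b was 0.27 higher, Cdk4 was −0.37 and Ccne1 (cyclin E1) −0.37. Rbl1, a relative of the retinoblastoma gene, was −0.32 ± 0.11 (SE), and limma's adjusted p for these genes ran from 0.272 to 0.399. Cdk4 was 9.09 in tumour 30 and 10.79 to 11.10 in the remaining low tumours, against 10.74 to 11.66 in the intermediate ones. Without tumour 30, 1 of 20 was lower and 1 higher at an unadjusted p under 0.05.

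The Bcl2 family, which sets the threshold for apoptosis, had 0 of 14 calls and a median difference of 0.00. Bik and Bmf were higher and Pmaip1 lower at an unadjusted p under 0.05, beside 6.05% and 4.88% of all genes. Bmf, another BH3-only gene, was 0.85 ± 0.34 (SE) higher (limma's adjusted p = 0.361), at 6.14 to 8.88 against 5.10 to 8.17. Bik, a BH3-only killer gene, was 0.48 ± 0.13 (SE) higher (limma's adjusted p = 0.191), at 7.39 in tumour 3, 7.15 in tumour 29, 6.82 in tumour 30 and 6.32 in tumour 21, where the highest intermediate tumour was at 6.23. The anti-apoptotic members Bcl2, Bcl2l1 and Mcl1 differed by 0.28, 0.02 and 0.06.

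Myc itself was 0.14 ± 0.19 (SE) higher (limma's adjusted p = 0.808), with all low tumours inside the intermediate range. Of the 22 tested Myc targets 21 were lower in the low tumours, with a median of −0.13, and 6 were lower at an unadjusted p under 0.05, while 0 passed. Over all genes 45.4% were higher and 4.88% were lower at such a p. Without tumour 30, 1 of 22 had such a p, and without tumours 29 and 30, 0 of 22. Among tumours without the Bpifa2 signal the direction turned, with 14 of 22 higher. Hspe1, a mitochondrial chaperonin gene, was −0.23 ± 0.08 (SE), and Srm, the spermidine synthase gene, −0.39 ± 0.16 (SE), with limma's adjusted p of 0.31 and 0.371. Srm was 10.19 in tumour 30 and 10.89 to 11.91 in the other 7, against 11.02 to 12.10 in the intermediate tumours.

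Proliferation genes had 0 of 25 calls and a median of −0.13, and glycolysis genes 0 of 13 and −0.15. Without tumour 30 these medians were −0.03 and −0.12, and among tumours without the Bpifa2 signal 0.01 and −0.09. At an unadjusted p under 0.05, 5 of 25 and 4 of 13 were lower, beside 4.88% of all genes, and 1 and 0 were higher, beside 6.05%. Without tumours 29 and 30, 0 of 25 and 3 of 13 were lower at such a p, and among tumours without the Bpifa2 signal 0 of 25 and 0 of 13. Pgam1, phosphoglycerate mutase, was −0.30 ± 0.09 (SE, limma's adjusted p = 0.232). Tumour 30 stood apart in this respect, with a proliferation score (the mean standardised level of the list) of −2.05, while the other low tumours ran from −0.54 to 0.47. Oxidative phosphorylation genes had 0 of 19 calls and a median of −0.02, and 15 tested DNA repair genes had 0 calls. Within the latter, Lig4, the ligase of end joining, was 0.88 ± 0.29 (SE) higher (limma's adjusted p = 0.261), and Nbn, a sensor of broken ends, −0.39 ± 0.11 (SE, limma's adjusted p = 0.214).

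The genes that handle methylthioadenosine and polyamines, the pathway in which Mtap acts, gave 0 of 17 calls and a median of −0.13. Those lower at an unadjusted p under 0.05, beside 4.88% of all genes, were Ahcy, Srm, Odc1 and Wdr77, and 0 were higher. Without tumour 30, 2 of 17 were lower at such a p, and without tumours 29 and 30, 0 of 17. Among tumours without the Bpifa2 signal it was also 0 of 17, with 7 higher and 10 lower on average. Prmt5, the arginine methyltransferase that methylthioadenosine inhibits, differed by −0.09. In tumours 21 and 29, where Mtap was lowest, Ahcy was 11.86 and 11.62 and Srm 11.44 in both, all within the intermediate range.

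The B cell lists gave 0 calls between the groups. Of 14 tested genes common to B cell stages, all 14 were higher on average in the low tumours, with a median of 0.27 and differences from 0.01 to 0.75, 3 at an unadjusted p under 0.05 (Syk, Cd79b and Spib, beside 6.05% of all genes), and 0 passed. T cell genes were lower on average for 8 of 8 (median −0.35) and myeloid genes for 13 of 16 (−0.17). NK cell genes were lower for 3 of 3 (−0.23), and 0 genes of these lists had an unadjusted p under 0.05. By the median tumour, the mean level of the T cell genes was 6.81 in the low and 6.72 in the intermediate tumours. For NK cell genes these medians were 5.91 and 5.86, and for myeloid genes 8.80 and 9.10. By this measure only the myeloid genes were lower. The part of these lists in the B cell values was not tested. All 14 B cell genes were also higher without tumours 29 and 30, and among tumours without the Bpifa2 signal. Syk, a kinase of B cell receptor signalling, was 0.60 ± 0.18 (SE) higher (limma's adjusted p = 0.214), at 10.58 in tumour 15 and 11.94 in tumour 29 at the extremes, against 9.18 to 11.18. Precursor B cell genes had 0 of 15 calls and a median of 0.17, with Il7r at 0.76, Rag1 at 0.03 and Igll1 at −0.51. Mature B cell genes had 0 of 15 and 0.03. Germinal centre genes had 0 of 4 calls and a median of −0.14, and plasma cell genes 0 of 7 and 0.07, with Jchain spread from 3.31 to 10.34 over the low tumours.

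Interferon response genes were lower on average for 15 of 17, with a median of −0.35, 1 at an unadjusted p under 0.05, beside 4.88% of all genes (Bst2, −0.58 ± 0.22 SE, limma's adjusted p = 0.323) and 0 calls. The mean level of the list ran from 6.45 to 7.63 in the low tumours, with a median of 6.97, and its median over the intermediate tumours was 7.20. Among tumours without the Bpifa2 signal 16 of 17 were lower. NF-kB genes had 0 of 13 calls and a median of −0.03, with Birc3, an inhibitor of apoptosis that NF-kB induces, 0.65 ± 0.21 (SE) higher (limma's adjusted p = 0.25).

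**Figure D4:**
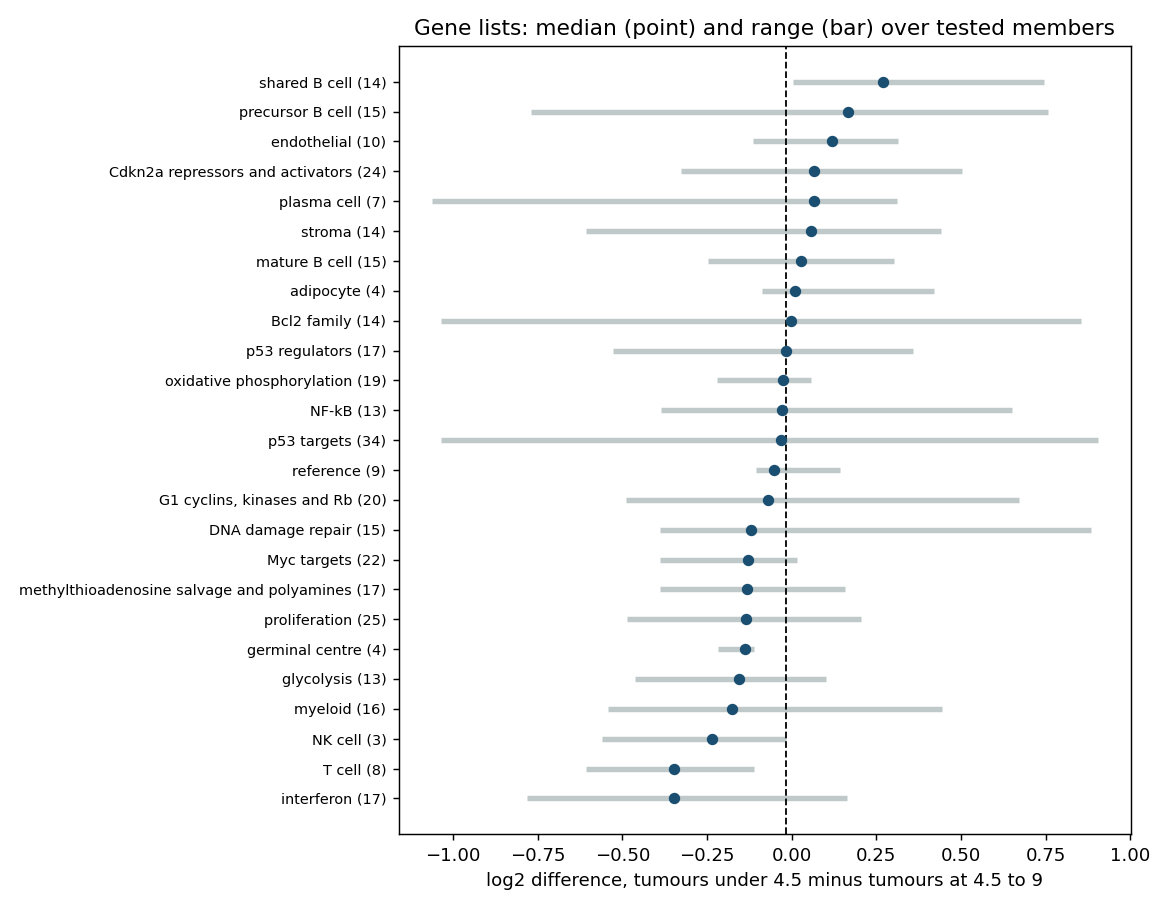
Median (point) and range (bar) of the log2 difference, low minus intermediate tumours, over the tested members of each gene list with at least 3 tested members, the number tested in brackets, and the median of all genes (dashed line, −0.02). The shared B cell genes lie highest, at 0.27, and the interferon genes lowest, at −0.35, and 0 members passed the test in any list shown. The salivary gland list, with a median of 2.41, is beyond the axis and not drawn.

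The lists of other cell types had 0 calls, and their mean levels overlapped between the groups. Besides the T cell, NK cell and myeloid genes given above, 9 of 10 endothelial genes were higher on average (median 0.12) and 10 of 14 stroma genes (0.06). By the median tumour, mean levels were 7.25 in the low and 7.34 in the intermediate tumours for endothelial genes, and 8.72 and 9.20 for stroma genes. Without tumour 30 alone the list medians were −0.03 for endothelial and −0.17 for stroma genes, with 3 of 10 and 4 of 14 higher. Without tumours 29 and 30 the medians were −0.23 for T cell, −0.35 for myeloid, 0.07 for NK cell, 0.05 for endothelial and −0.10 for stroma genes, so the NK cell and stroma directions turned. Among tumours without the Bpifa2 signal the endothelial (−0.05) and stroma (−0.31) directions turned. Mean levels over T cell genes ran from 6.18 to 7.69 in the low and from 6.18 to 9.80 in the intermediate tumours, over myeloid genes from 7.97 to 10.73 and from 8.29 to 10.21, and over stroma genes from 8.17 to 10.77 and from 7.88 to 9.68. Endothelial means ran from 6.74 to 8.40 and from 6.72 to 7.85, NK cell means from 5.10 to 6.73 and from 5.16 to 9.58, and adipocyte means from 7.05 to 11.39 and from 6.25 to 12.10. Erythroid genes had 1 tested member, Tfrc, at −0.21. All 11 tested salivary gland genes were higher on average, with a median of 2.41, and their mean ran from 4.58 to 13.10 and from 4.60 to 13.56, so both groups held tumours with and without this tissue's RNA. In bulk samples, more cells of a type and more RNA per cell cannot be told apart.

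The 9 tested reference genes had a median difference of −0.05 and 0 calls, and RNA quality ranges overlapped. The excess of 3′ over 5′ signal, taken from the array's Gapdh and Actb controls, was 0.27 to 0.67 in the low and 0.26 to 0.96 in the intermediate tumours. Tumours 29 and 30 had the most genes more than 1 unit outside the intermediate range, 56 below and 37 above in tumour 29 and 37 below and 76 above in tumour 30, and tumour 25 had 44 above. Among the intermediate tumours, each read against the range of the others, the most were 25 below and 143 above. Tumours 25 and 30 also had the highest stroma and myeloid scores of the low tumours, and Lgals3, a macrophage galectin gene, reached 12.86 in tumour 30. The part of these signals in the differences above was not tested beyond the values given.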

How the data were processed

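The deposited values are log2 expression per probe set, which the authors computed by RMA (affy), per the submitters' processing notes, with no version or setting named there. RMA gives all arrays the same distribution, so a shift shared by most genes would not show. Total RNA of 32 tumours was hybridised to 1 array each, and the number of arrays limits the precision. Since nothing says how tumours relate to animals, p-values measure the spread between these samples.

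Each of 45101 probe sets was named by the platform annotation, and 34958 had 1 symbol. A gene was read from the probe set with the highest mean over the arrays, and kept if that mean reached the median of all probe set means (5.78), leaving 11227 genes without Cdkn2a. Tumours under 4.5 and at 4.5 to 9 for Cdkn2a were compared with limma 3.58.1 in R 4.3.3 (lmFit, eBayes, two-sided, Benjamini-Hochberg at 0.05), tested on simulated data. Genes near Cdkn2a were taken from a fit of 18193 genes without the filter, and Mtap and Cdkn2b also had an exact permutation test over 4292145 splits. Gene order, names and promoter windows came from RefSeq tables of assembly GRCm38.p6.

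The tumours, lists and tests were chosen with earlier results of these data known. Named by rule were genes past the threshold (if none in a direction, the 5 with the largest t), Cdkn2b, Mtap and the 2 nearest measured genes on each side, the 2 list members with the largest t, classical p53 targets and Myc. Other genes were named after their values were seen. Alternatives were other probe set rules, filters, scalings, boundaries, tests and covariates, and leaving out each tumour. No batch is named in the sources used here.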

Additional observations from a re-analysis of the deposited data

Results flagged for a closer look

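Among the 8 low tumours, 7 of 65 genes checked had 1 tumour far from the other 7, by Dixon's test at its critical value of 0.526, and chance flags about 1 in 20 groups. Dmrta1 was 7.34 in tumour 3, with the next tumour at 3.18. Cdkn1a was 10.37 in tumour 30, with the next at 8.13. Tumour 30 also had the lowest Rrm1, a ribonucleotide reductase gene, at 10.24 with the next at 11.06, and the highest Lgals3, at 12.86 with the next at 11.07. Tfrc, the transferrin receptor gene, was 13.32 in tumour 29, with the next at 11.88. Ifna1 was 5.95 in tumour 29, with the next at 5.71. Cdkn2a, which chose the group, was lowest in tumour 28 at 3.79, with the next at 4.13.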

How the results depend on the processing

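The count of genes past the threshold, 1 in the main setting, was 0 with the boundary lowered so that tumour 29 counted as intermediate, with array weights, with Cdkn2a as a continuous axis, with Bpifa2 as a covariate, without tumours 29 and 30 and among tumours without the Bpifa2 signal. It was 2 with scaling to reference genes, 3 with the mean of the probe sets, 4 with a covariate for infiltrating cells (T cell, myeloid and stroma genes) and 2 without tumours 21 and 29. Leaving out 1 tumour gave 0 to 5 genes, with 0 without tumour 3, 25, 29 or 30, 2 without tumour 11 or 15, 3 without tumour 24, 4 without tumour 21 and 5 without tumour 31. Sik1 was among the genes called under several of these. For Tsc22d3 the difference ran from 0.69 to 1.28 over 47 alternatives, other than the slope on the continuous axis of 0.38 per log2 unit.

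Cdkn2b passed its exact permutation test with the boundary at 5 (−0.19), without tumour 15 and among tumours without the Bpifa2 signal (−0.32), and leaving out 1 tumour gave −0.19 to −0.12. Mtap kept its sign and its side of the exact test's threshold throughout, with −1.49 to −0.96 when 1 tumour was left out. The median of the p53 targets moved by less than the spread between tumours, and the count of neighbours called stayed at 0, under the alternatives run. The runs without tumours 21 and 29, without 29 and 30 and without Bpifa2 tumours were chosen after seeing the data. Not run were list medians on the continuous axis, a slope and so another quantity, and the stricter filter for neighbours, which are read without one. No paired analysis was possible because the labels give a single group and 1 array per tumour. The cause of these changes was not tested.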
